A study of Homo sapiens with 12 samples.

Results

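The comparison described here set A549 monolayers that were heat shocked and then wounded against monolayers that were only wounded. The samples were chosen by their titles, 3 arrays labelled as heat shocked and wounded and 3 labelled as wounded, which made 6 of the 12 arrays of the series. A549 is an established human lung adenocarcinoma line often used as a model of alveolar type II cells. All groups were A549 cells grown on uncoated plastic, and no genotype or further agent is given. The wounded group was wounded for 4 h. The heat shocked and wounded group received a 2 h heat shock before wounding and is called doubly treated below. The other groups of 3 arrays were untreated controls and monolayers that were heat shocked for 2 h. The temperature, the recovery time and the collection time of the cells that were only heat shocked were not given in the sources used here, and neither was whether separate cultures stood behind the 3 samples of a group. Each p-value therefore measures the spread between these samples, which may be technical. The series asked, by its title, how the heat shock response acts on fibroblast growth factor 1 (FGF1) in wounded lung epithelium.

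Heat shock unfolds proteins, which frees heat shock factor 1 (HSF1) from its chaperone partners. HSF1 then binds heat shock elements, repeats of inverted 5-base units, in the promoters of chaperone genes. Wounding of an epithelial sheet starts a fast wave of immediate early transcription factors, among them the AP-1 proteins FOS and JUN, and then genes for proteases, integrins and growth factors that let the border cells spread and migrate.

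Values are log2 levels of 1 probe set per gene for 18132 genes, so a difference of 1 is a 2-fold change. Levels carry the SD over 3 arrays and differences the SE of the limma fit. A gene was called higher or lower at a Benjamini-Hochberg adjusted p under 0.05 over all genes. Array medians ran from 5.30 to 5.32. Replicate 2 of the doubly treated group stood apart, with an interquartile range of 3.98 against 4.13 to 4.24 on the other arrays, so results that rest on it are given without it too. The median SD over genes was 0.113 in that group and 0.088 in the wounded group. All 5 general epithelial markers were above the level of leukocyte and endothelial genes, taken as background here (upper quartile 4.80 in wounded cells), with KRT18 at 13.79. Of 12 alveolar type II markers 6 were above it, SFTPB at 5.27 in wounded cells, while SFTPA1 was at 2.31. Folds that start under 4.80 are approximate.

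Heat shock before wounding changed 2704 of 18132 genes (14.9%), 1144 higher (6.31%) and 1560 lower (8.6%). Of the 100 genes that differed at least 2-fold, 88 were higher and 12 lower. After cyclic loess 1257 were called higher and 1228 lower. The median difference over all genes was 0.02. Without doubly treated replicate 2, 1838 genes were called (842 higher and 996 lower), 1727 of them among the 2704 with the same direction, and 84 differed at least 2-fold, of which 4 were lower. Without wounded replicate 1, 1649 were called. Same-numbered samples of both groups deviated together, so the replicate number was also used as a block. The block left 2728 calls in the fit of all 12 arrays. Restricted to the 6 arrays compared, 1370 genes were called with the replicate block and 1663 without it. Counts of that last paired fit are given below, as with the block, wherever they differ from the main count by more than 1.5 times.

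The largest rises included those of chaperones. HSPA6 encodes a strictly stress-inducible HSP70. It was at 4.79, 4.86 and 4.18 on the wounded arrays and at 10.92, 10.96 and 10.40 on the doubly treated arrays, a rise of 6.15 ± 0.26 (SE; 70.9-fold; limma adjusted p = 3.48e-08). SERPINH1 encodes HSP47, the collagen chaperone of the endoplasmic reticulum. Its values were 8.74, 8.80 and 8.75 in wounded cells and 11.97, 11.91 and 11.54 in doubly treated cells, a rise of 3.05 ± 0.11 (adjusted p = 1.54e-08). The lowest doubly treated array lay far above the highest wounded array for both genes. CHORDC1, a cochaperone of HSP90, was at 10.50, 10.72 and 9.87 after wounding and at 12, 11.80 and 11.95 with heat shock first, again without overlap.

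The promoters of these 3 genes are shown because each holds the heat shock element of 3 units (GAA, TTC and GAA, each 2 bases apart, or the reverse complement), which is rare among promoters. They are RefSeq sequences of GRCh38.p14, from 250 bases before to 50 after the listed start, written 5′ to 3′ along the gene, with the element in capitals. HSPA6 lies on the plus strand (chr1:161524290-161524589), SERPINH1 on the plus strand (chr11:75562003-75562302, 1 of 2 listed starts) and CHORDC1 on the minus strand (chr11:90223000-90223299).
HSPA6: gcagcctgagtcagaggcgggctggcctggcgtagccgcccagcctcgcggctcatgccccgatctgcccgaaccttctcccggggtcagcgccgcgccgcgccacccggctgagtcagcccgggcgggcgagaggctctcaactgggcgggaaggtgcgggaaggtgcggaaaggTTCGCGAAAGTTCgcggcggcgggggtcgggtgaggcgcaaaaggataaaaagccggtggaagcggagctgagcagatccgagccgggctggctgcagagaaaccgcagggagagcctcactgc
SERPINH1: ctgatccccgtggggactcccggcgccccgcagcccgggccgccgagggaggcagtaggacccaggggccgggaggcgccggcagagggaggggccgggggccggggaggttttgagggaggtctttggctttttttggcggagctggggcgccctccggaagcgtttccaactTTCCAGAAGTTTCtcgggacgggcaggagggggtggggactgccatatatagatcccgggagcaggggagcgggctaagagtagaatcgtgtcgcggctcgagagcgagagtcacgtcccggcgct
CHORDC1: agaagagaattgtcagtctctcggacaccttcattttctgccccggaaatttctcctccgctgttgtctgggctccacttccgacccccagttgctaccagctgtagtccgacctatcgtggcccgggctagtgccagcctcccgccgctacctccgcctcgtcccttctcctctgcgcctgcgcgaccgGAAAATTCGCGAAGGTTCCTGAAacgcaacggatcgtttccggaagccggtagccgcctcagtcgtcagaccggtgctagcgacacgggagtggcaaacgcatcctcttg
The middle of the element lay 68 bases before the start in HSPA6 and 70 in SERPINH1. CHORDC1 held 3 overlapping copies, at 54, 49 and 44 bases. Over all 14425 genes with a listed promoter, counting every listed start, 81 (0.562%) held the 3-unit element. It stood in 19 of 914 such genes called higher (2.08%), in 6 of 67 at least 2-fold higher (8.96%) and in 3 of 1309 called lower (0.229%). Besides the 3 genes shown, the 19 included DNAJB6, DNAJA1, HSP90AA1, HSP90AB1 and HSPD1 among chaperones, and also DOCK10, PHF8 and ATP2C1. The 2-unit element TTCNNGAA, which is its own reverse complement and lies inside the 3-unit one, was in 11.5% of the higher genes and 8.87% of all. A match is a description of these letters, not of binding.

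Each of the 5 chaperone lists held genes that rose. Of 75 measured members of the HSP70, DNAJ, small heat shock protein, HSP90 and chaperonin lists, 34 were higher and 6 lower, against 6.31% and 8.6% of all genes. HSP70 and HSP110 proteins hold unfolded chains, and 6 of 15 were higher, among them HSPA4L by 2.87 ± 0.10, HSPA1B by 2.42 ± 0.20 and the HSP110 gene HSPH1 by 1.82 ± 0.10. HSPA1B has near-identical paralogs, so its probe set may read more than 1 gene. One member, the testis-enriched HSPA2, was lower by 0.76 ± 0.08 on the log2 scale, a gene named after its value was seen. HSPA8, the constitutive member, was at 13.57, 13.64 and 13.45 after wounding and at 13.67, 13.68 and 13.61 after both, a difference of 0.10 ± 0.06 that did not pass (adjusted p = 0.336). DNAJ proteins deliver clients to HSP70, and 8 of 22 were higher, led by DNAJB1 (1.94 ± 0.16) and DNAJB6 (1.31 ± 0.10). The 3 that were lower became 1 with the block and 0 without doubly treated replicate 2.

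Small heat shock proteins and BAG proteins, which keep aggregates soluble and hand clients to autophagy, had 5 of 13 higher and 1 lower (0 with the block). HSPB8 was at 8.14, 8.03 and 7.96 in wounded cells and 10.76, 10.70 and 10.60 in doubly treated cells, and its partner BAG3 at 9.83, 9.85 and 9.52 against 12.51, 12.34 and 12.26. CRYAB, the alpha-B crystallin gene, rose by 2.38 ± 0.19 and HSPB1 by 1.43 ± 0.10. Of 15 HSP90 and cochaperone genes 9 were higher and 1 lower, with a list median of 0.48. The inducible HSP90AA1 and the constitutive HSP90AB1 rose by like amounts, 0.49 ± 0.07 and 0.48 ± 0.06. Their cochaperone FKBP4 rose by 1.56 ± 0.09, PPID by 1.03 ± 0.07 and STIP1, the HSP70 to HSP90 adaptor, by 0.85 ± 0.06. Chaperonins, the folding chambers of cytosol and mitochondria, moved less: 6 of 10 were higher, CCT6A by 0.59 ± 0.06, TCP1 by 0.45 ± 0.06 and HSPD1 by 0.40 ± 0.06. Among heat shock factors and their partners 0 of 4 measured were called, HSF1 differing by 0.08 ± 0.08 (adjusted p = 0.577) with a list median of 0.15.

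Of the 34 chaperones that were higher, 31 were also higher after heat shock without wounding, a comparison that shares no array with this one and called 4.93% of genes higher. Only 2 of the 75 were higher after wounding alone (2.27% of genes), a comparison that shares the wounded arrays. For none of the 75 did the heat shock effect differ between wounded and unwounded cells past the threshold (smallest adjusted interaction p 0.602). Among the 34 the effect in wounded cells minus that in unwounded cells ran from -0.33 (HSPB1) to 0.52 (DNAJB5). Among the 68 chaperone genes with a listed promoter the 3-unit element was in 7 of 31 called higher (22.6%) and in 1 of 37 of the others (2.7%).

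**Figure D1:**
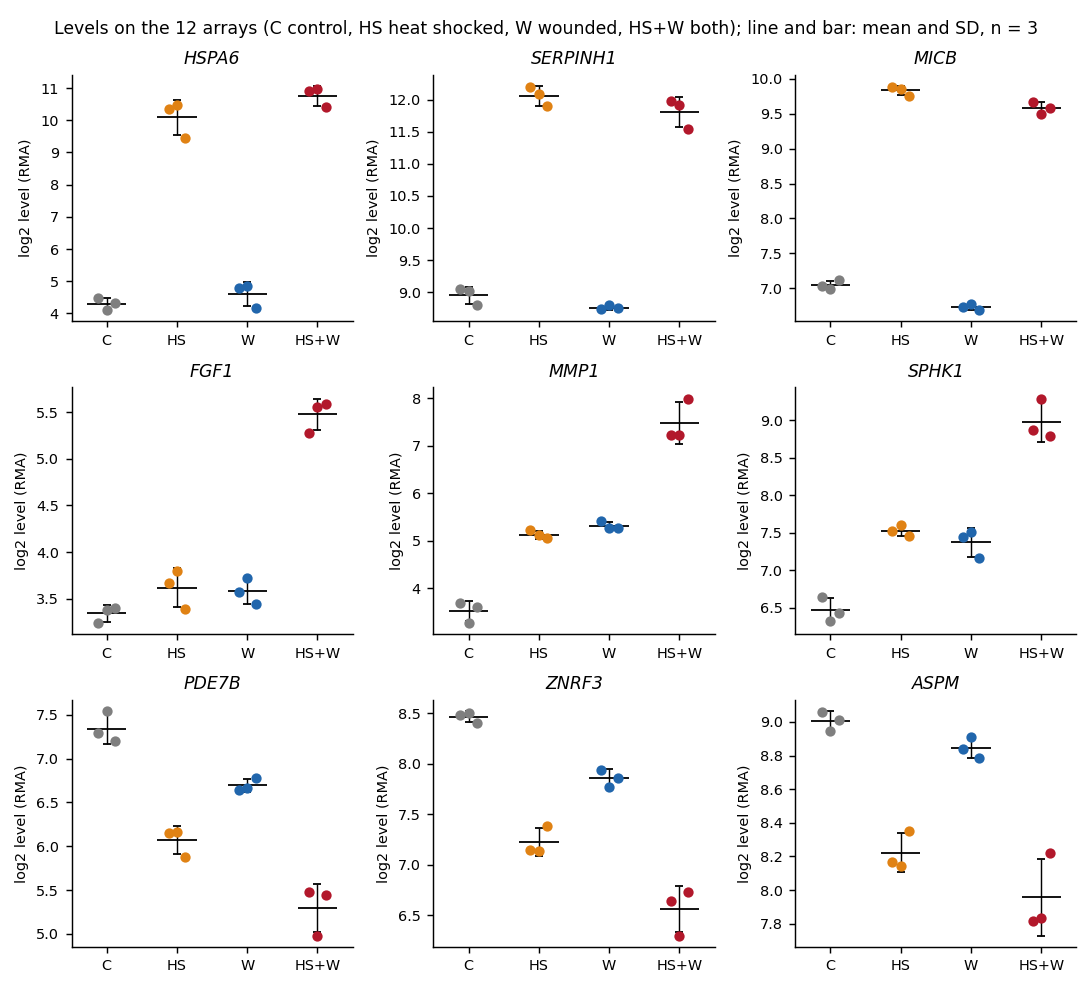
Log2 level of 9 genes on each of the 12 arrays (points; y axes differ and do not start at 0), in 4 groups of 3, with the group mean (line) and SD (bar). HSPA6, SERPINH1 and MICB stood high with heat shock whether or not cells were wounded; FGF1 stood high on the doubly treated arrays, 5.28 to 5.59, and lay between 3.25 and 3.80 on the other 9; MMP1 and SPHK1 rose with each treatment and PDE7B, ZNRF3 and ASPM were lowest on the doubly treated arrays.

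Other protein quality control genes moved in small numbers. In the unfolded protein and integrated stress response 2 of 23 were higher and 2 lower (1 and 1 with the block, and 4 higher without doubly treated replicate 2). TRIB3, a stress-induced pseudokinase, rose by 0.62 ± 0.06, and the sensor gene EIF2AK3 (PERK) was lower by a difference of -0.49 ± 0.10, with an adjusted p of 0.0559 with the block. Ubiquitin and aggrephagy genes had 3 of 13 higher (1 with the block), of which ZFAND2A, an arsenite- and heat-inducible proteasome partner, rose by 1.49 ± 0.11. Of 27 proteasome subunits 0 were higher and 1 lower (0 with the block), and 37 cytosolic ribosomal proteins had 0 calls either way and differences from -0.10 to 0.06. For these 37 the median was 0.01. In the BCL2 family, which sets the threshold for apoptosis, 4 of 18 were higher and 0 lower, the pro-survival gene MCL1 by 0.55 ± 0.06 and BID by 0.38 ± 0.07. BCL2L11 was also called higher, by 0.39 ± 0.09, but another of its probe sets passed in the opposite direction.

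Several of the largest rises were outside the chaperones. PGF encodes placental growth factor, a ligand of the VEGF receptor FLT1. It was at 4.30, 3.84 and 4.13 in wounded cells and at 8.04, 7.89 and 7.64 in doubly treated cells, a rise of 3.77 ± 0.18 (adjusted p = 1.39e-07). MICB encodes a surface ligand that the NKG2D receptor of natural killer cells reads, and was at 6.74, 6.78 and 6.69 against 9.67, 9.49 and 9.58, a rise of 2.85 ± 0.07. All 3 doubly treated values of each gene lay above all 3 wounded values. The eosinophil chemokine CCL26 rose by 2.86 ± 0.25, the death effector domain gene DEDD2 by 2.80 ± 0.13, RFPL2 by 2.65 ± 0.23, the small GTPase gene RRAD by 2.56 ± 0.29 and DMRT1, a gonadal transcription factor gene, by 2.5 ± 0.14. Other probe sets of DMRT1 differed by 0.17 and 0.13 and did not pass. PGF, CCL26, RFPL2 and DMRT1 started under 4.80, as did HSPA6 on average (4.61), so the sizes of these rises are approximate. In 11 of the 12 largest rises doubly treated replicate 3 was the lowest array of its group.

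The NKG2D ligand list held 3 higher of 8 and a median of 0.43, with MICA up by 0.39 ± 0.09 and ULBP2 by 0.51 ± 0.15, a call lost without any of 4 arrays. Among vascular growth factors 4 of 17 were higher and 3 lower (2 and 1 with the block), PGF and VEGFA (0.59 ± 0.16) among the former and EDN2, an endothelin, at -0.92 ± 0.15 among the latter. Without doubly treated replicate 2, 1 vascular gene was lower. The VEGFA call was lost without wounded replicate 1 or 3 or doubly treated replicate 2. Cytokines and chemokines had 5 of 26 higher and 1 lower (0 with the block), 3 higher without doubly treated replicate 1 or 2 or wounded replicate 1 or 3. IL11, a profibrotic cytokine of the IL6 family, was at 8.70, 8.82 and 8.63 against 10.03, 10.38 and 9.92. IL6R, the IL6 receptor gene, rose by 0.51 ± 0.10. Of 15 NF-kappaB genes 1 was higher and 1 lower, NFKBIA by 0.60 ± 0.14 (not called without doubly treated replicate 2) and RELB by -0.40 ± 0.09 (adjusted p = 0.0635 with the block). Interferon-induced genes had 0 of 26 called.

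FGF1 had the smallest p-value for a difference in heat shock response between wounded and unwounded cells. FGF1 is a secreted growth factor that binds all FGF receptors. Its values were 3.57, 3.72 and 3.45 on the wounded arrays and 5.28, 5.55 and 5.59 on the doubly treated arrays, a rise of 1.89 ± 0.12 (3.72-fold; adjusted p = 1.42e-06). Control arrays read 3.25, 3.38 and 3.40 and heat shocked arrays 3.67, 3.80 and 3.39, a difference of 0.28 that did not pass (adjusted p = 0.152). The interaction, which is the heat shock effect in wounded cells minus that in unwounded cells, was 1.62 ± 0.16 (adjusted p = 0.00623). It was the only interaction called among 18132 genes (0.00552%), while 1302 had an unadjusted p under 0.05, and the next smallest adjusted p was 0.281. All wounded, control and heat shocked values lay under the background level of 4.80, and all 3 doubly treated values above it. Changes under that level are compressed, so a rise in unwounded cells may be understated and the size of the interaction is approximate. A part of the time since heat shock, not given for the cells that were only heat shocked, was not tested. The other 3 probe sets of FGF1 also rose with heat shock in wounded cells, by 0.89, 0.47 and 1.03. With all 4 averaged, the interaction was 0.85 and no longer passed (adjusted p = 0.137).

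An FGF1 promoter is shown because FGF1 was the only gene with a called interaction. The window shown was picked because it holds both a heat shock element of 2 units and an AP-1 site. It is 1 of 4 listed starts (RefSeq, GRCh38.p14, chr5:142644190-142644489, minus strand), with both matches in capitals.
FGF1: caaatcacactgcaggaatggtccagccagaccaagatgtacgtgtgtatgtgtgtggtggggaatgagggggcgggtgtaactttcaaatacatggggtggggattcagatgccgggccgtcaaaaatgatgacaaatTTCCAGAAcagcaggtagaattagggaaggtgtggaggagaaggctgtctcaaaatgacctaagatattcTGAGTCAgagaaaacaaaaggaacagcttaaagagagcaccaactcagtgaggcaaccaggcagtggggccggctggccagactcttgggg
The heat shock element lay 107 and the AP-1 site 38 bases before this start. No listed start of FGF1 held the 3-unit element in its window. Over its 4 listed starts FGF1 held 1 match to the 2-unit element and 1 to the AP-1 letters (TGANTCA). Counting every listed start, the 2-unit element was in 8.87% of all genes with a promoter and 11.5% of the higher ones. For TGANTCA these shares were 8.23% and 11.7%. Which start the A549 cells use was not measured, and a part of either match in the FGF1 rise was not tested.

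In the wider FGF list 3 of 28 genes were higher and 0 lower (5 higher without doubly treated replicate 3). FGF2, the basic FGF, was at 8.81, 8.98 and 8.53 after wounding and at 9.36, 9.39 and 9.49 after both, a rise of 0.64 ± 0.11. It also rose by 1.01 after heat shock alone and by 1.04 after wounding alone, the last sharing the wounded arrays. FGF11 rose by 0.34 ± 0.08 (not with the block or without wounded replicate 1), from levels under background. The receptors FGFR1 (-0.18 ± 0.06, adjusted p = 0.0528), FGFR2 (0.11) and FGFR3 (-0.18) were not called. FGFR1 was called lower under 5 of the 18 alternatives. Another probe set of FGFR1 (-0.42, limma adjusted p = 0.0426) and another of FGFR2 (0.38, 0.0328) passed, while their remaining probe sets did not. MAP kinase phosphatases and Sprouty proteins, feedback inhibitors of growth factor signalling, had 4 of 16 higher and 1 lower, but 1 higher with the block and 2 without doubly treated replicate 2. The lower gene was SPRED1 (-0.61 ± 0.09). SPRY4 was 0.40 higher, and its probe set with the largest interquartile range differed by -0.19. Of 16 EGF receptor family genes 0 were higher and 2 lower, ERBB3 by -0.77 ± 0.11 and EREG, whose call was lost without any of 5 arrays, doubly treated replicate 2 among them (1 lower gene left). EGFR differed by 0.28 ± 0.10 (adjusted p = 0.0925) and was called higher under 3 of the alternatives.

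The TGF-beta, activin and BMP list held 7 of 37 higher (18.9%) and 4 lower (10.8%), against 6.31% and 8.6% of all genes. It held 4 higher without doubly treated replicate 2, without replicate 1 of that group or without wounded replicate 1. INHBA, the activin A subunit, was at 5.63, 5.74 and 5.55 against 6.34, 6.47 and 6.37, and the mediator SMAD3 rose by 0.41 ± 0.06. BMP2 rose by 0.72 ± 0.12 while BMP4 was at 8.36, 8.21 and 8.47 against 7.52, 7.22 and 7.56, a difference of -0.91 ± 0.10. TGFB1 itself was not called (0.11 ± 0.13).

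Most genes of matrix breakdown and matrix assembly did not pass the test, and of those that did more were higher than lower. The collagenase gene MMP1 was at 5.41, 5.28 and 5.28 in wounded cells and at 7.24, 7.22 and 8.0 in doubly treated cells, a rise of 2.16 ± 0.17 (adjusted p = 1.47e-05). MMP10, stromelysin 2, was at 5.34, 5.31 and 5.16 against 6.96, 7.15 and 7.55, a rise of 1.95 ± 0.19. Both groups of values stood well apart. The list of metalloproteinases, ADAMTS and TIMPs held 5 of 25 higher and 2 lower, and 3 higher and 1 lower with the block (1 lower without doubly treated replicate 2). The inhibitor TIMP2 rose by 0.45 ± 0.08. MMP7, matrilysin, was lower by a difference of -0.38 ± 0.11, a call lost without any of 5 arrays, and another of its probe sets differed by 0.29 the other way. The MMP10 promoter (RefSeq, GRCh38.p14, chr11:102780579-102780878, minus strand) is shown for its match to the AP-1 letters TGANTCA, in capitals, 64 bases before the start. The search took any base in the middle, which is A here.
MMP10: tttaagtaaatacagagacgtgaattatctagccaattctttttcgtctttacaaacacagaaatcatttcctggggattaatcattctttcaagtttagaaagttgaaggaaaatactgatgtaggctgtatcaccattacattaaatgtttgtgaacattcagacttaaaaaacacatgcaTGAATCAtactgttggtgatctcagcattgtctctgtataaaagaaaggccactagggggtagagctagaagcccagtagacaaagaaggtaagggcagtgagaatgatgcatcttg
Counting every listed start, such matches were in 11 of 67 genes at least 2-fold higher (16.4%), in 5.96% of lower genes and in 8.23% of all.

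The urokinase receptor gene PLAUR was at 9.12, 9.20 and 9.27 against 9.92, 10.13 and 10.10, and its ligand PLAU at 9.84, 9.82 and 9.85 against 10.15, 10.42 and 10.42. PLAU was 0.49 ± 0.08 higher here and differed by -0.03 after heat shock alone, but its interaction did not pass (adjusted p = 0.319). In the plasminogen and coagulation list 3 of 11 were higher and 1 lower (0 with the block). Collagens and their processing enzymes had 9 of 29 higher and 0 lower. Besides SERPINH1 the prolyl hydroxylase genes P4HA2 (1.02 ± 0.09) and P4HA1 (0.46 ± 0.07), the lysyl hydroxylase gene PLOD2 (0.67 ± 0.06), COL4A1 (0.43 ± 0.09) and COL7A1 (0.41 ± 0.10) rose. COL1A1 rose by 0.75 ± 0.16 from 4.89, an adjusted p of 0.0768 with the block. COL1A1 was also the 1 of 9 fibroblast markers called. The summed level of those 9 markers ran from 32.08 to 33.37 on the wounded arrays and from 33.43 to 34.73 on the doubly treated arrays, and LUM, the lowest, stood at 2.28 after wounding. Of these 9 markers 2 were above background in wounded cells. All groups were A549 cells, so the sums are given as levels and not as a share of other cells. Endothelial markers summed to 33.55 to 33.71 on the wounded and 33.78 to 36.35 on the doubly treated arrays, the 36.35 being that of replicate 2. TEK stood at 2.64 after wounding, and TIE1 was the only 1 of 8 called (0.37 ± 0.09). Its adjusted p was 0.0535 with the block and 0.0531 without doubly treated replicate 2. In bulk RNA, a change in some of the cells and a change in all of them cannot be told apart.

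Most adhesion and migration genes were not called. In each list of this paragraph at most 8% were lower, under the 8.6% of all genes. Between 8% and 23.5% were higher, against 6.31% of all genes. Laminins, fibronectin and the hyaluronan system had 4 of 17 higher and 1 lower, 2 higher with the block and 2 without doubly treated replicate 2. LAMB3, a chain of an epithelial basement membrane laminin, rose by 0.67 ± 0.10 and the hyaluronan synthase gene HAS3 by 0.47 ± 0.08, while the hyaluronan receptor HMMR, a gene of the mitotic spindle as well, was -0.37 ± 0.06. Integrins and focal adhesion genes had 7 of 30 higher and 2 lower (1 lower with the block and 1 without doubly treated replicate 2). ITGA2, the collagen-binding integrin subunit, was at 9.73, 9.80 and 9.41 against 10.20, 10.53 and 10.43, the adaptor PXN rose by 0.62 ± 0.08, and CAVIN2, a caveola coat gene, was lower by a difference of -1.02 ± 0.14. KANK4 was at 4.74, 4.67 and 3.29 against 6.19, 6.10 and 5.84, so its wounded replicate 3 lay apart. Among epithelial mesenchymal transition genes 4 of 20 were higher and 0 lower. The repressors of E-cadherin SNAI1 and SNAI2 rose by 1.06 ± 0.13 and 1.11 ± 0.21. CDH1, which encodes E-cadherin, differed by -0.12 ± 0.07 (adjusted p = 0.257) and VIM by -0.03 ± 0.06, neither called. CRB3 was 0.23 higher on this probe set, and the probe set with the largest interquartile range differed by -0.07. Its call was lost with the block, at an adjusted p of 0.0546 on all 12 arrays and 0.148 on the 6, and without doubly treated replicate 2 (0.126). YAP and SRF targets had 5 of 29 higher and 1 lower (3 and 0 with the block), 2 higher without wounded replicate 1 and 0 lower without doubly treated replicate 2. ANKRD1 rose by 1.66 ± 0.33 and FHL2 by 0.77 ± 0.09. Keratins and junction genes had 2 of 25 higher and 2 lower, and 1 of each without doubly treated replicate 2. KRT80 rose by 0.77 ± 0.10 and CLDN4, a claudin of tight junctions, by 0.76 ± 0.22 (adjusted p = 0.0390), while the other 2 CLDN4 probe sets differed by 1.83 and 1.84. The CLDN4 call on the first probe set was lost with the block on all 12 arrays (adjusted p = 0.0666) and without any of 5 arrays (0.0534 to 0.129), all but doubly treated replicate 3.

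Immediate early factors, the first genes of the wound response, had 9 of 26 higher and 2 lower, 6 higher without wounded replicate 1 or 3 or doubly treated replicate 2, and 1 lower without the last. IER5, an HSF1 cofactor gene, rose by 0.83 ± 0.13, the small MAF gene MAFF by 0.88 ± 0.15 and the AP-1 gene JUNB by 0.74 ± 0.12. FOSL1 rose by 0.63 ± 0.12 (adjusted p = 0.0585 with the block). EGR1 was at 7.84, 8.09 and 8.13 after wounding and 7.43, 8.14 and 8.47 after both, a difference of -0.01 ± 0.27, so both groups overlapped. FOS was at 8.14, 8.36 and 8.24 against 7.45, 7.83 and 7.96, a difference of -0.50 ± 0.15 (adjusted p = 0.0453), and its call was lost without any of 5 of the 6 arrays. MYC was not called (-0.20 ± 0.08). NR4A2, an orphan nuclear receptor gene, was at 7.07, 6.90 and 7.24 against 6.46, 6.33 and 6.30, lower on all 3 arrays.

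The wounded state itself can be placed beside the heat shock effect for genes that passed both in wounded against control and in the main comparison. Both comparisons use the wounded arrays, which ties their values together, so no share of overlap is given. Among genes higher after wounding and higher again after both, MMP1 differed by 1.80 after wounding and then by 2.16, SPHK1, which makes sphingosine 1-phosphate, by 0.90 and then 1.61 ± 0.13, and OXTR, the oxytocin receptor gene, by 0.71 and then 2.31 ± 0.15. Heat shock alone, which shares no array with the main comparison, gave 1.61, 1.06 and 2.56 for these genes. GEM, a small GTPase gene, stood at 1.43 after wounding, a further 1.68 after both and 1.83 after heat shock alone. Each of these 4 genes was thus raised by either treatment, and none had a called interaction.

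Other wound-raised genes were lower with heat shock first. SSBP3, a cofactor of LIM domain factors, was at 6.73, 6.49 and 6.39 in wounded cells and at 5.48, 5.27 and 5.76 in doubly treated cells, below its control arrays of 5.84, 6.0 and 5.97. HOOK3, a dynein adaptor gene, was at 8.32, 8.33 and 8.10 against 7.24, 7.32 and 7.34, with controls at 7.92, 7.92 and 7.80. NR4A2 differed by 0.73 after wounding, by -0.71 ± 0.13 in the main comparison and by -0.03 after heat shock alone. ARHGAP12 (-0.75 ± 0.08), EEIG2 (-0.68 ± 0.08) and FHOD3 (-0.71 ± 0.12) were the same kind. The interaction was not called for any of these 6 genes, so a different heat shock effect in wounded cells was not shown.

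Genes lower after wounding also went both ways. MICB differed by -0.31 after wounding and by 2.85 in the main comparison. AVPI1, a vasopressin-induced gene, was at 9.20, 9.0 and 9.22 in wounded cells, 10.29, 10.03 and 9.72 in doubly treated cells and 9.90, 9.85 and 9.77 in controls. BCOR, a BCL6 corepressor gene, differed by -0.71 after wounding, by 0.58 ± 0.09 in the main comparison and by 0.04 after heat shock alone, and SLC9A2, a sodium-proton exchanger gene, by -0.47, 0.68 ± 0.11 and 0.37. Lower in both steps were PDE7B, ZNRF3, CYP1B1, DNA2, SLFN11, CAVIN2, PDE7A and SARM1. The number of genes called after wounding alone was 648 (3.57%), and 306 without wounded replicate 2 or 324 without wounded replicate 1, so membership of these classes depends on which wounded arrays are used.

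**Figure D2:**
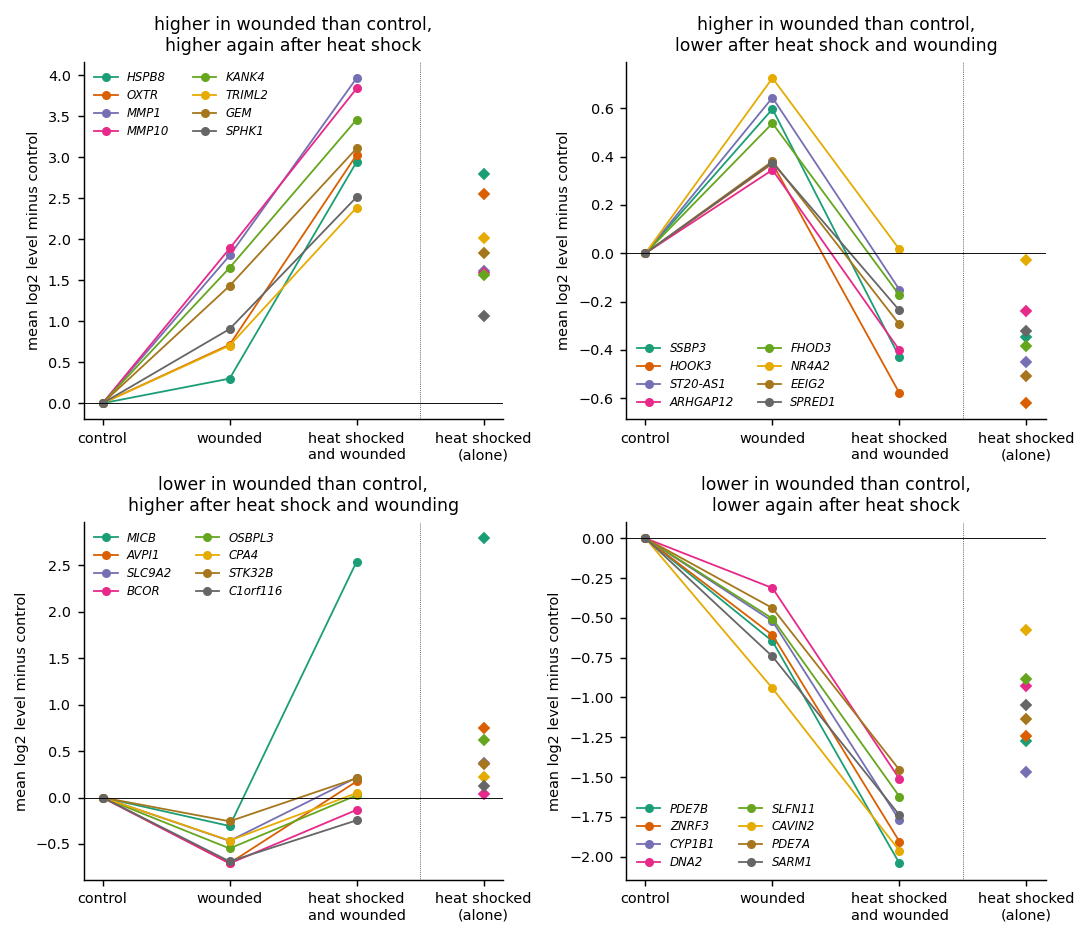
Mean log2 level minus the control mean (n = 3 arrays per group) for up to 8 genes in each of 4 classes, named by their call after wounding alone and in the main comparison; diamonds on the right show heat shock alone. MMP1 rose by 1.80 and a further 2.16, SSBP3 rose and then fell below control, MICB fell by 0.31 and then rose by 2.85, and PDE7B fell in both steps.

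The largest falls were smaller than the rises. PDE7B, a cyclic AMP phosphodiesterase gene, was at 6.64, 6.67 and 6.77 in wounded cells and at 5.47, 4.98 and 5.44 in doubly treated cells, a difference of -1.40 ± 0.13 (adjusted p = 4.37e-05). ZNRF3, a ubiquitin ligase that removes Wnt receptors, was at 7.94, 7.77 and 7.86 against 6.64, 6.30 and 6.73, a difference of -1.30 ± 0.11. CYP1B1, a cytochrome P450 gene, was -1.25 ± 0.13, and DNA2, a nuclease and helicase of DNA end resection, was at 6.55, 6.72 and 6.74 against 5.50, 5.46 and 5.44. SLFN11, which blocks stressed replication forks, was -1.12 ± 0.11. In 11 of the 12 largest falls doubly treated replicate 2 was the lowest array of its group, as it was in 59.5% of all genes called lower. Without it all 12 were still called, with sizes from 0.841 to 1.237. The exception was DNA2, with a fall of size 1.2 in both fits.

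Phosphodiesterases, which break down cyclic AMP and cyclic GMP, had 8 of 15 lower and 1 higher, with a median of -0.28, and 5 lower and 0 higher with the block. PDE7A was -1.02 ± 0.10, PDE8B -0.61 ± 0.12 and PDE10A -0.48 ± 0.10. PDE4B was the member that was higher, by 0.45 ± 0.12, and was not called without doubly treated replicate 2. Wnt feedback genes and receptors had 8 of 26 lower and 2 higher, with a median of -0.09, and 4 lower with the block. AXIN2, a feedback target of Wnt signalling, was at 6.94, 6.54 and 6.81 against 5.86, 5.33 and 5.97, and differed by -1.05 ± 0.17. The receptors FZD7 (-0.70 ± 0.10) and FZD6 (-0.67 ± 0.08) were lower as well. In the Notch pathway 4 of 16 were higher and 1 lower, with 2 higher without doubly treated replicate 2, without replicate 1 of that group, or without wounded replicate 1 or 2. NOTCH1 was at 5.80, 6.19 and 6.09 against 6.92, 6.81 and 6.96, and HEY1, a Notch target, rose by 0.70 ± 0.09 from 3.6, under background. HES1, another target, was lower by a difference of -0.63 ± 0.12.

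The list with the largest share of lower genes among the 44 lists was that of G2/M and mitosis. Of its 47 measured genes 38 were lower and 0 higher, against 8.6% and 6.31% of all genes, with a median of -0.38. With the block 25 were lower, and without doubly treated replicate 2, 33. The doubly treated values lay under all wounded values for 44 of the 47, against 32.1% of all genes without overlap in either direction, and the doubly treated mean was the lowest of the 4 groups for 45. ASPM, a spindle pole gene, was at 8.84, 8.91 and 8.79 against 7.82, 7.84 and 8.22, a difference of -0.89 ± 0.10 (adjusted p = 0.000152). KIF2C, a microtubule depolymerase, was at 9.21, 9.13 and 9.29 against 8.34, 8.38 and 8.53. The spindle motor KIF11 was -0.72 ± 0.07, the condensin subunit NCAPH -0.70 ± 0.06, cyclin B1 (CCNB1) -0.46 ± 0.07, CDK1 -0.36 ± 0.08 and the proliferation marker MKI67 -0.38 ± 0.08. After wounding alone 1 of the 47 was lower (1.31% of genes) and the median was -0.10, with the wounded arrays shared, and after heat shock alone 29 were lower (7.92% of genes) with a median of -0.30.

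The ASPM promoter (RefSeq, GRCh38.p14, chr1:197146620-197146919, minus strand) is shown as an example of the elements this group shares. The capitals mark 4 CCAAT boxes, here on the reverse strand as ATTGG, and 1 match to the cell cycle homology region, TTTGAA, here as TTCAAA.
ASPM: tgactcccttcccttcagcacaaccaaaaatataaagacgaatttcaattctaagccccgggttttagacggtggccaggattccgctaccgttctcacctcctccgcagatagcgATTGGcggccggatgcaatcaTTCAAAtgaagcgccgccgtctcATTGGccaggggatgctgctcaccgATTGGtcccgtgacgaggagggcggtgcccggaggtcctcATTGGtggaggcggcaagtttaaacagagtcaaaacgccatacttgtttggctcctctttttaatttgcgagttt
CCAAT boxes lay 132, 88, 63 and 23 bases before the start and the cell cycle homology region 110. Of 40 genes of the list with a promoter 32 held CCAAT (80.0%) against 42.4% of all, and 28 held TTTGAA (70.0%) against 15.9%. Over all genes called lower the shares were 45.6% and 19.9%.

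G1/S and DNA replication genes had 23 of 47 lower and 1 higher, with a median of -0.27, 15 lower and 2 higher with the block. CCNE2, cyclin E2, was at 6.72, 6.80 and 7.07 against 5.75, 5.27 and 6.09, a difference of -1.16 ± 0.17. The repressor E2F8 was -0.83 ± 0.07, the ribonucleotide reductase subunit RRM2 -0.77 ± 0.08 and the polymerase subunit POLE2 -0.72 ± 0.09. CDK6 was the member that was higher, by 0.32 ± 0.07. After wounding alone 9 of the 47 were lower (1.31% of genes) with a median of -0.21, the wounded arrays being shared. After heat shock alone 26 were lower (7.92% of genes) and 1 higher, with a median of -0.28. Homologous recombination and Fanconi anaemia genes, which are mostly expressed in S phase, had 9 of 25 lower and 1 higher (0 higher with the block, 3 without doubly treated replicate 2), BRIP1 by -0.78 ± 0.12, RAD51AP1 by -0.68 ± 0.10 and BRCA1 by -0.56 ± 0.07. Replication-dependent histones had 1 of 20 in each direction (0 higher with the block). Among p53 targets and CDK inhibitors 5 of 24 were higher and 3 lower (2 and 1 with the block), but 1 and 1 without doubly treated replicate 2 and 1 higher without wounded replicate 1 or 3. CDKN1A, which encodes the CDK inhibitor p21, was at 10.83, 10.78 and 10.71 against 11.44, 11.50 and 11.23, a rise of 0.61 ± 0.10.

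**Figure D3:**
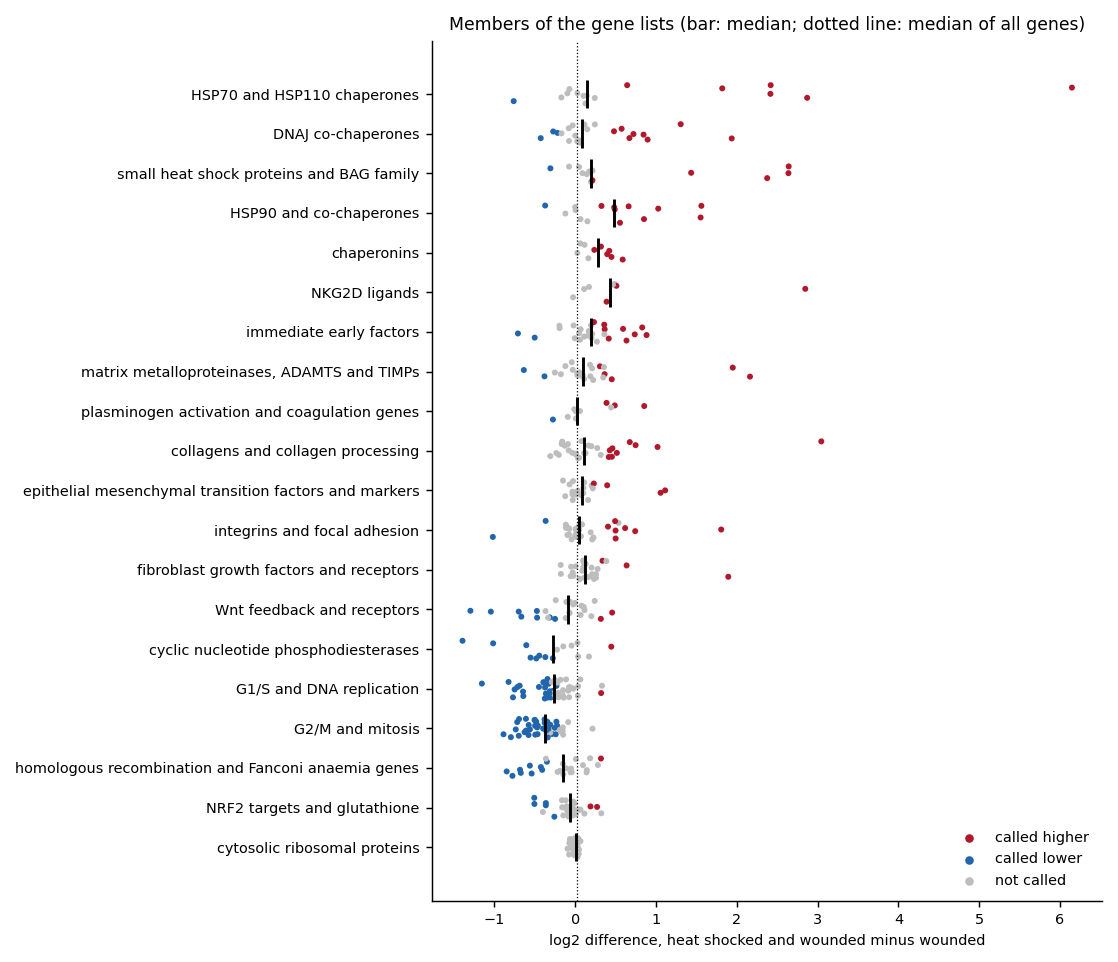
Log2 difference between doubly treated and wounded arrays for each measured member (points, spread at random within a row) of 20 gene lists, red where called higher, blue where called lower and grey where not called; bars are list medians and the dotted line is the median of all genes, 0.02. The HSP70 and HSP110 list reaches farthest to the right, with HSPA6 at 6.15, and the chaperonins reach 0.59. The G2/M list lies mostly left of the line with a median of -0.38, and the ribosomal proteins lie close to it.

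Most members of the metabolic, redox and other lists of this paragraph were not called. Over all genes 6.31% were higher and 8.6% lower. Cholesterol synthesis (5% and 10%) and glycolysis (6.45% and 9.68%) were near those shares. The share of lower genes was larger for NRF2 and glutathione (16.7%, with 6.67% higher) and for splicing (24%, with 4% higher). NRF2 targets and glutathione genes had 5 of 30 lower and 2 higher (0 higher with the block, 1 without doubly treated replicate 2), among them the glutamate cysteine ligase genes GCLC, at 9.36, 9.51 and 9.57 against 8.93, 8.95 and 9.03, and GCLM (-0.36 ± 0.06), and the cystine carrier SLC7A11 (-0.51 ± 0.08). After heat shock alone GCLC and GCLM differed by -0.09 and -0.01 and were not called, and their interactions did not pass either. Metallothioneins and zinc genes had 2 of 11 higher (1 with the block, 1 without doubly treated replicate 2), and SLC30A1 (0.36 ± 0.08) turned to -0.37 on the probe set with the largest interquartile range. Cholesterol and fatty acid synthesis had 1 of 20 higher and 2 lower (1 lower with the block, 0 higher without doubly treated replicate 2), SREBF1 by -0.45 ± 0.09. Glycolysis and hypoxia genes had 2 of 31 higher and 3 lower (1 higher with the block), PFKFB4 by 0.63 ± 0.13 and PDK1 by -0.81 ± 0.14. Splicing factors and kinases had 6 of 25 lower and 1 higher, 3 lower with the block or without doubly treated replicate 2 or wounded replicate 1, and 2 without wounded replicate 2. None was higher without doubly treated replicate 2. SRSF2 was -0.62 ± 0.11. Mitochondrial ribosome and complex I genes had 1 of 46 higher and 2 lower (0 and 0 with the block, 1 lower without doubly treated replicate 2). Of 11 housekeeping genes 1 was lower (TFRC, the transferrin receptor, -0.32 ± 0.06), and GAPDH and ACTB differed by -0.02 and -0.01. Alveolar type II markers had 1 of 12 called (ETV5, -0.57 ± 0.11), type I markers 1 of 8 and leukocyte markers 0 of 10.

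The heat shock effect in wounded cells resembled that in unwounded cells across the array. Heat shock alone changed 2330 genes (12.9%), 894 higher and 1436 lower. That split depended on the scaling, with 1058 higher and 1052 lower after median centring and 1227 and 923 after cyclic loess. Of these, 1589 were called in the same direction in wounded cells (649 higher and 940 lower), which was 68.2% of the unwounded calls and 58.8% of the wounded calls. Only 4 genes were called in opposite directions, FMNL3, LOC105379783, PRAC1 and PYY, all at low levels and named after their values were seen. With the block all 4 lost the call in wounded cells (adjusted p = 0.0788, 0.0932, 0.142 and 0.0887), and PRAC1 lost it with the block on all 12 arrays too (0.0548). Across 18132 genes both effects correlated at r = 0.77 and rho = 0.58, a description across genes, which are not independent replicates. Of the 1111 genes called in wounded cells and not in unwounded ones, 980 had the same sign there, with a median size of 0.35 in wounded and 0.17 in unwounded cells. A call in one state and not in the other does not show a difference between them, and apart from FGF1 the interaction was not called.

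VASN, a cell surface trap for TGF-beta, was next in the order of interaction p-values together with SOX18, among genes called in the main comparison. VASN was at 6.07, 6.05 and 5.90 in wounded cells and at 6.92, 7.21 and 7.03 in doubly treated cells. Its heat shock effect was 1.05 ± 0.11 in wounded and 0.09 in unwounded cells, an interaction of 0.96 ± 0.16 that did not pass (adjusted p = 0.281). SNAI1 rose by 1.06 against 0.33 (interaction adjusted p = 0.502). CCDC18, a centrosomal coiled coil gene, was lower by a difference of -0.77 ± 0.06 in wounded and -0.28 in unwounded cells (interaction adjusted p = 0.315), at levels under background.

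**Figure D4:**
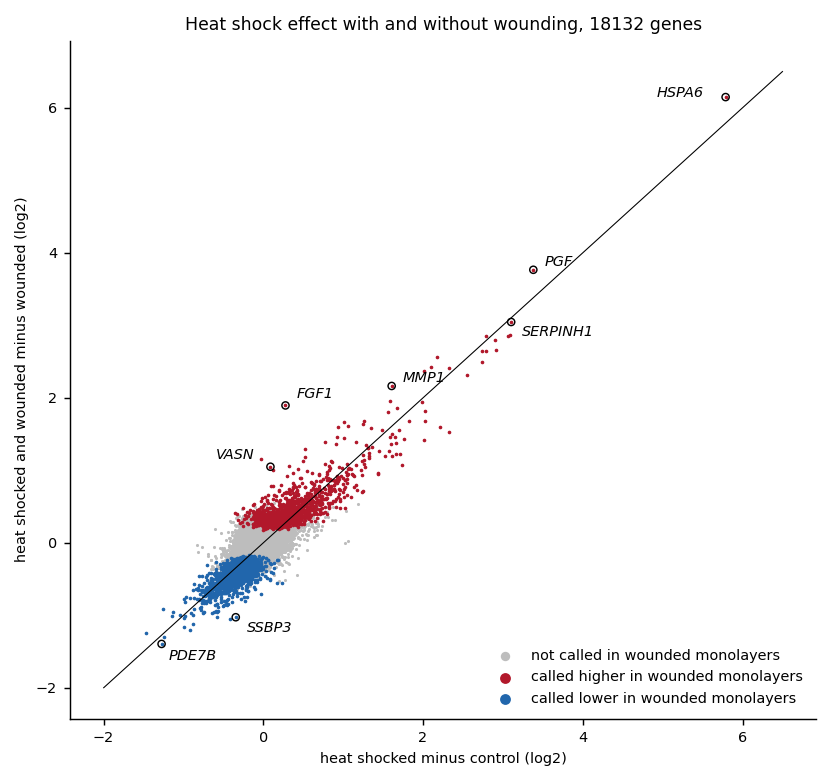
Each of 18132 genes by its heat shock effect in unwounded cells (x axis, heat shocked minus control, log2) and in wounded cells (y axis, doubly treated minus wounded, log2), coloured by the call in wounded cells; the line marks equal effects. HSPA6 (5.79 and 6.15), PGF and SERPINH1 lie near the line, and FGF1 lies above it at 0.28 and 1.89.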

How the data were processed

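RNA of 12 A549 samples was measured on Affymetrix PrimeView arrays from 100 ng of total RNA each, per the labels' protocols. The authors deposited log2 levels per probe set, for which the submitters' processing notes name RMA and Affymetrix Expression Console. RMA corrects background, equalises the distributions of the arrays and summarises the probes of a set, so changes of dim probe sets are compressed. No version is given in the sources used here. Scanner files were not used here. Of 49293 probe sets, 1 had a missing value and 44961 had 1 symbol that matched a RefSeq gene. A gene was read through its probe set of highest mean level, taken over the 12 arrays, which gave 18132 genes. Probe sets with several symbols or none were left out, and some genes of the lists were not analysed here. Of 2050 called genes with several probe sets, 1005 had another one called the same way and 23 one called the opposite way.

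Groups came from the titles. A linear model (limma 3.58.1 under R 4.3.3, with lmFit, contrasts.fit and eBayes) was fitted to all 12 arrays with 1 mean per group, 8 residual degrees of freedom and Benjamini-Hochberg adjustment, and was tested on simulated data. Every adjusted p of a gene comes from limma. Precision is limited by 3 arrays per group. Sample numbers in the titles gave the pairing. Deviations from the group means of same-numbered wounded and doubly treated samples correlated at 0.103, 0.234 and 0.144, all over 0.1, while other pairs of groups ran from -0.187 to 0.225. The fit without the block is the main one. The comparison, the 44 gene lists and the 6 marker lists were chosen with earlier results of these data known, and no list was given a test of its own. Genes were named by rule: the 12 largest rises and falls among called genes without overlap and up to 5 called members per list by size (2 by p where none was called). Added to these were up to 8 per wound class, the 8 smallest interaction p-values among genes called in the main comparison, and a fixed set. List members outside the rule, such as HSPA2, HSP90AA1, CDK1, CCNB1, MKI67, CDK6, PDE4B, P4HA1, COL4A1 and COL7A1, and the genes with a promoter match were chosen after their values were seen. Promoters are those of RefSeq, GRCh38.p14, and 14425 genes had at least 1.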

Additional observations from a re-analysis of the deposited data

Results flagged for a closer look

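The heat shock effect on FGF1 differed between wounded and unwounded monolayers, by an interaction of 1.62 on the log2 scale (limma adjusted p = 0.00623), with a rise of 1.89 in wounded cells and 0.28 in unwounded cells. All 3 doubly treated arrays were above all other 9 arrays. The probe set read was chosen by a mean that includes the doubly treated arrays. With all 4 probe sets averaged the interaction was 0.85 and did not pass (limma adjusted p = 0.137). The values on those 9 arrays lay under the level taken as background, where changes are compressed. A rise in unwounded cells may thus be understated, and the sizes given are approximate. The collection time of the cells that were only heat shocked was not given. A part of the background level or of the time since heat shock in this difference was not tested.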

How the results depend on the processing

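FGF1 was higher in doubly treated than in wounded cells under all 18 alternatives of that comparison. The interaction has its own alternatives, since fits of the 6 arrays hold none. It passed in 21 of them, with limma adjusted p from 0.000802 to 0.0425. All but the alternatives on probe sets read the same probe set of FGF1. The interaction did not pass in 1, the mean over its probe sets (0.85, limma adjusted p = 0.137). The number of interaction calls was then 0, 2 with a trend in eBayes, and 1 to 2 with 1 array left out. Main calls numbered 1663 in a fit of the 6 arrays compared alone and 1370 with the replicate block there, 1649 to 2839 with 1 array left out, and 1370 to 3779 over all alternatives, with 74 to 134 genes at least 2-fold. The block on the 6 arrays leaves fewer residual degrees of freedom, and 53 of the 210 named genes that were called missed the threshold there and 9 with the block on 12 arrays. The share of main calls that were higher was 42.3%, and 50.6% after cyclic loess, with shifts of the median under 0.1. Heat shock alone gave 3871 calls with array weights and 1438 to 2594 with 1 array left out, and wounding alone 1436 and 306 to 722. The causes were not tested. Of the 210 named genes, 126 kept direction and call under every alternative, 83 lost the call under at least 1, and 4 changed sign on another probe set: CRB3 (-0.072), MMP7 (0.29), SLC30A1 (-0.37, and -0.0011 as the mean over its probe sets) and SPRY4 (-0.19). Of the 24 named genes that were not called, 7 passed under at least 1 alternative. Dim genes limit the rest: 6583 genes were at or under the background level in both groups, and 233 of them were called. The fit of the 6 arrays with the block and the left-out array in the single-treatment comparisons were chosen after seeing the data.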
